A study of Homo sapiens with 3 samples.

Results

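FOXA2 binding was examined around 7 genes that move salt and water across the intestinal epithelium, namely SLC26A3, SLC9A2, SLC9A3, SLC12A2, KCNQ1, SLC4A4 and GUCY2C. CFTR was left out by design. Each gene was taken with 50 kb on each side, on hg19, and a peak was counted when its midpoint lay in that interval. Peaks were taken by position and not by score, but the genes were chosen with earlier results of these data known. The 7 intervals held 75 of the 63949 peaks of replicate 1 and 27 of the 26907 peaks of replicate 2.

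The peaks came from ChIP-seq, which uses an antibody to recover the DNA bound by a protein. The cells were Caco2, an established human colorectal adenocarcinoma line often used to study intestinal epithelial cells, grown in low-glucose medium with serum and given no treatment. FOXA2 was immunoprecipitated in 2 replicate libraries, and 1 input library without antibody served the authors' peak calling. Separate cultures are not stated for the replicates, so the spread between them may be technical. RNA was not measured, so the data say where FOXA2 was bound and not whether a gene was expressed. The deposited score of a peak is the number of tags (sequenced DNA ends) in it, scaled to 10000000 tags per library. Replicate 1 held 26183147 tags and replicate 2 held 15756702, so each unit of score equals 2.62 tags of the first library and 1.58 tags of the second. Replicate 1 had the higher immunoprecipitation efficiency as well, 8.72% against 5.16% in replicate 2, per the file headers. The smallest called score was 3 in replicate 1 and 5 in replicate 2.

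Fluid follows salt across the gut wall. During absorption, apical exchangers take up sodium and chloride in return for protons and bicarbonate. During secretion, basolateral transporters load the cell with chloride and bicarbonate, basolateral potassium channels keep the driving force, and apical channels release the anions. Guanylate cyclase C, the product of GUCY2C, is the apical receptor for guanylin peptides and for bacterial heat-stable enterotoxin, and its product cyclic GMP shifts the balance from absorption to secretion. FOXA2 is a forkhead transcription factor of endoderm-derived tissues that can bind compacted chromatin.

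Promoter sequences are shown for the genes that have a called peak within 5 kb of the start given by their interval. They also needed an entry in the RefSeq table used here (build GRCh38.p14). Each window runs from 250 bases before to 50 bases after the start, printed on the gene's strand. These windows are on another build than the peaks, and no position was carried over. Capitals mark TGTTTA or its reverse complement TAAACA, a short form of the forkhead core.
SLC26A3, chr7:107803174-107803473, minus strand: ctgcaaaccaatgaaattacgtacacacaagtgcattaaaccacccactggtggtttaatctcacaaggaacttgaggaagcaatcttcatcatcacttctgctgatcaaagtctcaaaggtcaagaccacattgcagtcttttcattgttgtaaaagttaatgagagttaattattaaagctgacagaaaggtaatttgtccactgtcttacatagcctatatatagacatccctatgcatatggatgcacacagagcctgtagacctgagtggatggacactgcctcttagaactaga
SLC9A2, chr2:102619303-102619602, plus strand: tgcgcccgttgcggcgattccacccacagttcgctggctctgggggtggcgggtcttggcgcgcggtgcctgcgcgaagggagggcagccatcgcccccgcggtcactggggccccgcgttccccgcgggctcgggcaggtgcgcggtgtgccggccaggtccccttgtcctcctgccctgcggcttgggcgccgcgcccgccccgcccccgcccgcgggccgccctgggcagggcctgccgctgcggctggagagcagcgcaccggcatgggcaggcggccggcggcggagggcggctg
SLC12A2, chr5:128083516-128083815, plus strand: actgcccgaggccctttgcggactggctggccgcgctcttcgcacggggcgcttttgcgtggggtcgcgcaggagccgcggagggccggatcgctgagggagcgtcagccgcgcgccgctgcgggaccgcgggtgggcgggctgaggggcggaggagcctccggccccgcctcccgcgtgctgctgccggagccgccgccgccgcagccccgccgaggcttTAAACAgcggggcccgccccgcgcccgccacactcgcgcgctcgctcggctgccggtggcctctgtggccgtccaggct
The SLC26A3 window is AT-rich, with a GC content of 39.7%. The windows of SLC9A2 and SLC12A2 have a GC content of 80.0% and 78.7%. The forkhead cores searched, on both strands, were TGTTTAC, then the variant TATTTAC with another second base, and the variant TGTTTGC with another sixth base. They were in 0 of the 9 windows that the table lists for 5 of the genes, while 9.57% of all 35116 windows in the table hold at least 1 of them. TGTTTA, which overlaps the first of these and was added after the windows had been searched, was in 3 of the 9 and in 12.3% of all windows. SLC4A4 alone has 5 of the 9 windows, so the 9 are not independent. The 3 matches were in windows of SLC12A2 and SLC4A4 only. In SLC12A2 TGTTTA begins at position -29, counted from the gene start as 0, and lies on the opposite strand. These matches describe the letters of the windows and are not evidence of a site.

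FOXA2 peaks were found around 6 of the 7 genes, and SLC9A3 had none. Sites were called shared where peaks of both lists had at least 1 bp in common, and are given at their replicate 1 position. Of the 75 replicate 1 peaks in the intervals, 24 were shared, or 32.0% (95% Wilson interval 22.5% to 43.2%, counting error only), against 38.1% of the whole list. Of the 27 replicate 2 peaks, 24 were shared, or 88.9% (71.9% to 96.1%), against 90.5% of the whole list. The median scores were those of the whole lists, 8 in replicate 1 and 11 in replicate 2.

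Per length, the intervals held 1.29 shared sites per 100 kb, against 0.861 per 100 kb over the genome, counted in the 2828 bins of 1 Mb that hold a peak. SLC26A3 had the most, 3.6 per 100 kb, followed by SLC9A2 with 3.12, GUCY2C with 1.62, SLC4A4 with 1.24, SLC12A2 with 0.966 and KCNQ1 with 0.396. Only KCNQ1 and SLC9A3 among the 7 lay below the genome's value. Copy number is altered in Caco2 cells, and these densities are not corrected for it. As a background for each count, the genome was tiled with windows as long as the interval. These windows were placed without regard to genes, while every interval was built around a gene, so they are not a matched background. Of the windows of 139 kb, 49.0% held no shared site. For SLC26A3, 5.96% of windows of 139 kb held at least as many shared sites, and for SLC9A2, 6.9% of windows of 192 kb did. The same percentage was 23.4% for GUCY2C, 29.7% for SLC4A4, 40.0% for SLC12A2 and 67.9% for KCNQ1. The counts of the last 4 genes were therefore common ones for regions of their length.

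**Figure D1:**
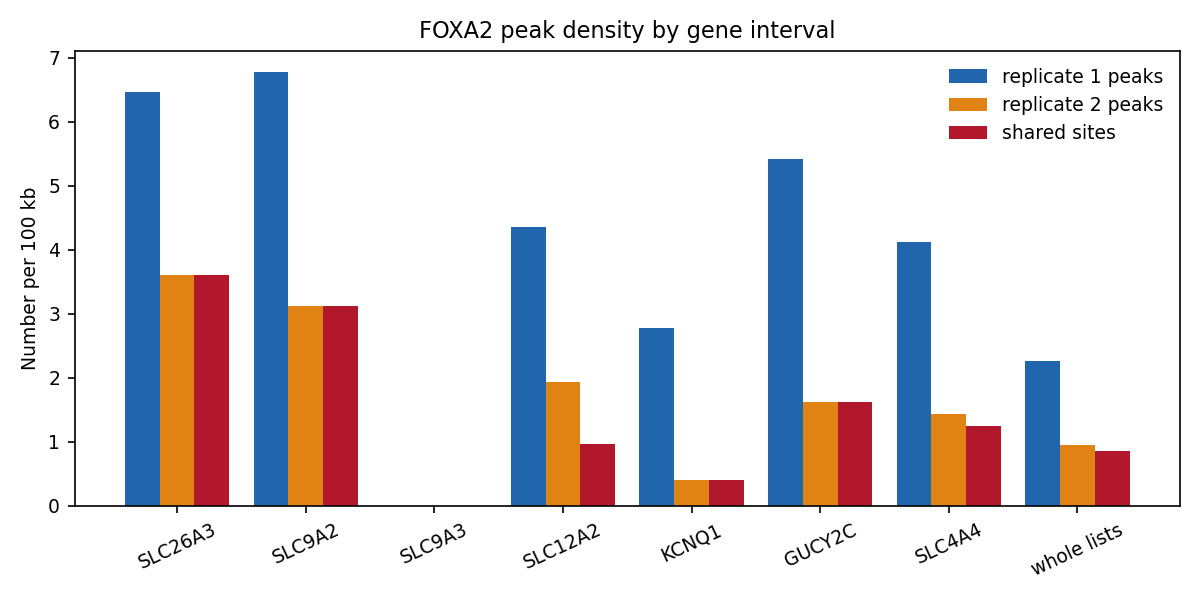
Number of FOXA2 peaks per 100 kb (vertical axis) in each gene interval and in the whole lists, for replicate 1 peaks, replicate 2 peaks and sites shared by both. SLC26A3 and SLC9A2 had 3.6 and 3.12 shared sites per 100 kb, against 0.861 in the whole lists, and SLC9A3 had none.

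SLC26A3 encodes the apical chloride and bicarbonate exchanger of the colon and ileum, whose loss causes congenital chloride diarrhoea. Its interval held 9 replicate 1 peaks and 5 replicate 2 peaks, and all 5 replicate 2 peaks had a replicate 1 partner. The site nearest the gene start lay 3.7 kb inside the gene, at chr7:107440273-107440395, and scored 37 in replicate 1 and 22 in replicate 2, a mean of 29.5 ± 10.6 (SD, n = 2). Distances are counted in the direction of transcription from the gene end given by the interval, which is exact to about 1 kb. An intragenic pair lay 23.8 kb and 24.4 kb from the start, with centres 639 bp apart. The stronger of the pair, at chr7:107420133-107420255, scored 24 in replicate 1 and 26 in replicate 2, and the weaker, at chr7:107419494-107419616, scored 14 in replicate 1 and 11 in replicate 2. Upstream, 32.9 kb before the start, the site at chr7:107476885-107477007 scored 36 in replicate 1 and 30 in replicate 2 (33 ± 4.24, n = 2), the highest mean of the interval. Beyond the 3′ end, 59.9 kb from the start, the site at chr7:107384016-107384138 scored 39 in replicate 1 and 20 in replicate 2. RefSeq lists CBLL1 and SLC26A4, which encodes pendrin, as neighbours on that side, so this site cannot be tied to SLC26A3 by position. Of the 5 shared sites of the interval 4, this one among them, scored at least 20 in both replicates. The count was 3 around SLC4A4, 2 around SLC9A2, 1 around SLC12A2 and 0 around the other genes. The share of all shared sites scoring at least 20 in both replicates was not computed. The 4 peaks found in replicate 1 alone scored between 4 and 17. The highest of these, at chr7:107365682-107365804, was also the strongest peak of any interval that a single replicate held.

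SLC9A2 encodes NHE2, an apical sodium and proton exchanger. Its interval held 13 replicate 1 peaks, of which 6 were shared, and 6 replicate 2 peaks. Of the shared sites, 3 lay before the gene, 1 in its body and 2 beyond its end. The upstream site at chr2:103202503-103202625, 33.4 kb before the start, scored 57 in replicate 1 and 25 in replicate 2, a mean of 41 ± 22.6 (SD, n = 2) with the widest spread of the 24 shared sites. The next, 27.7 kb before the start at chr2:103208235-103208357, scored 33 in both replicates. The last shared site before the gene, at chr2:103222964-103223086, scored 20 in replicate 1 and 15 in replicate 2 and stood in a group of 5 peaks spanning 16.12 kb, the other 4 of which were found in replicate 1 alone. The last of that group lay within 1 kb of the gene start, at chr2:103236482-103236604, and was weak, with a score of 6. The next 70.6 kb of the gene held no peak. The 3 shared sites in the last part of the gene and beyond it were weaker, with mean scores of 10.5, 9 and 8.5. RefSeq lists SLC67A2 and TMEM182 as neighbours past the 3′ end. The weakest of the 3 scored lower in replicate 1, 6, than in replicate 2, 11.

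SLC9A3 encodes NHE3, the main apical sodium and proton exchanger of the small intestine, and is mutated in a form of congenital sodium diarrhoea. Its interval held 0 peaks in replicate 1 and 0 in replicate 2. The empty region was wider than the interval. In replicate 1 no peak was called from 271554 to 759272 on chromosome 5, a stretch of 488 kb, and in replicate 2 none from 271523 to 716966, a stretch of 445 kb. The peaks that bound it scored 15 and 12 in replicate 1, above that list's median of 8. In replicate 2 they scored 6 and 7, below that list's median of 11. Of windows of 152 kb over the genome, placed without regard to genes, 22.1% held no peak of either replicate. That percentage is for the interval and not for the wider empty region. Of windows of 485 kb, the length of the SLC4A4 interval, 4.51% held no peak. Windows of the empty region's own length were not counted. The lists hold only peaks above the authors' thresholds, so weaker binding at SLC9A3 was not detectable in them. The RefSeq promoter window of SLC9A3 has a GC content of 81.3%. Whether the sequence could be read as well as elsewhere was not tested, since the input was not analysed here.

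**Figure D2:**
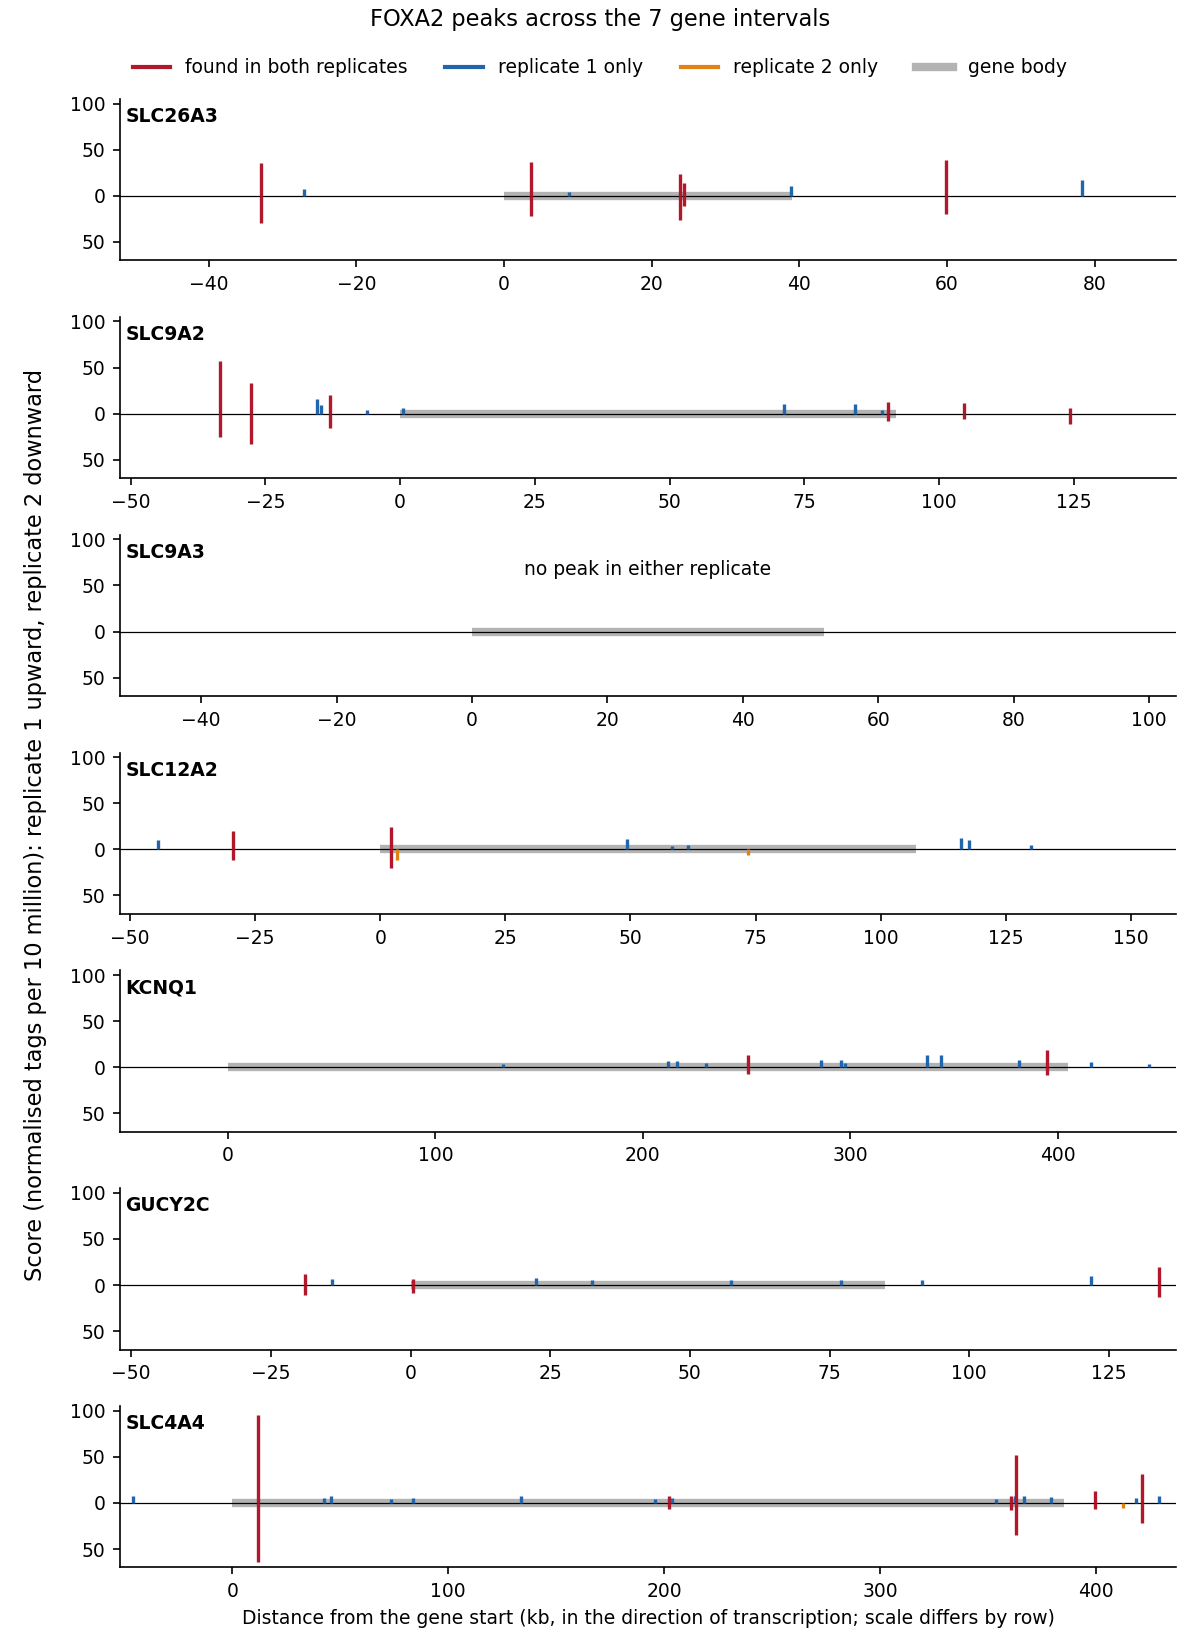
FOXA2 peaks by distance from each gene's start in kb (horizontal axis, scale differing by row), with the score in normalised tags drawn upward for replicate 1 and downward for replicate 2. Red marks peaks found in both replicates, blue and orange those of a single replicate, and the grey bar the gene body; the tallest site is in SLC4A4, with 95 in replicate 1 and 64 in replicate 2.

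SLC12A2 encodes NKCC1, the basolateral cotransporter of sodium, potassium and chloride that loads secretory cells with chloride. It had 9 replicate 1 peaks and 4 replicate 2 peaks, of which 2 sites were shared. The stronger lay 2.2 kb inside the gene, at chr5:127421105-127421227, and scored 24 in replicate 1 and 20 in replicate 2 (22 ± 2.83, SD, n = 2). Of the shared sites of the 7 genes, only that of GUCY2C lay closer to the start given by its interval. A replicate 2 peak with a score of 11 lay 1169 bp further in, at chr5:127422260-127422410, and had no replicate 1 partner. The other shared site lay 29.5 kb before the start, at chr5:127389429-127389551, with 20 in replicate 1 and 11 in replicate 2. The 7 peaks of replicate 1 alone scored 4 to 12, and 3 of them lay past the 3′ end. RefSeq lists no protein-coding neighbour within 50 kb of SLC12A2.

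KCNQ1 encodes a voltage-gated potassium channel that recycles potassium across the basolateral membrane of secretory epithelia and also carries current in the heart. In its interval of 505 kb, replicate 1 had 14 peaks and replicate 2 had 2. The density of replicate 1 peaks, 2.77 per 100 kb, was near the genome's 2.26, and that of replicate 2 peaks, 0.396, was below the genome's 0.951. The shared site at chr11:2860884-2861006, 394.9 kb from the start and close to the 3′ end of the gene, scored 19 in replicate 1 and 8 in replicate 2 (13.5 ± 7.78, SD, n = 2), the largest ratio of the 24 shared sites at 2.38. The shared site at chr11:2716778-2716900, 250.8 kb from the start, scored 13 in replicate 1 and 7 in replicate 2. The first 183 kb of the interval, made of the 5′ flank and the first 132.8 kb of the gene, held no peak. None of the 14 replicate 1 peaks reached a score of 20.

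SLC4A4 encodes NBCe1, the sodium and bicarbonate cotransporter that brings bicarbonate in across the basolateral membrane. Its interval of 485 kb held 20 replicate 1 peaks, 7 replicate 2 peaks and 6 shared sites. It had the strongest site of the 7 genes, at chr4:72064693-72064815, 11.8 kb inside the gene. This site scored 95 in replicate 1 and 64 in replicate 2, a mean of 79.5 ± 21.9 (SD, n = 2), which ranked 707 of the 24345 shared sites. It scored above 99.0% of the replicate 1 list and 96.1% of the replicate 2 list. The next, at chr4:72416056-72416178, 363.1 kb from the start, scored 52 in replicate 1 and 35 in replicate 2 (43.5 ± 12, n = 2). It stood in a group of 5 peaks over 12.95 kb near the 3′ end of the gene, of which 2 were shared, with a replicate 1 peak of score 8 only 504 bp away. Past the 3′ end, at chr4:72474058-72474180, another shared site scored 31 in replicate 1 and 22 in replicate 2. The other 3 shared sites had mean scores of 7.5, 7.5 and 10. Between 203.5 kb and 353.7 kb from the start the gene held no peak, a stretch of 150 kb. The first site alone carried 32.6% of the summed replicate 1 score of the interval. RefSeq lists 5 promoter windows for SLC4A4 and a gene length of 509 kb, against 385 kb in the interval used here. Some starts therefore lie outside the interval's gene body, and the distances given hold for 1 of several starts. In both replicates the nearest peak before the interval lay 119.8 kb from that gene body. It scored 28 in replicate 1 and 32 in replicate 2. The first of the 5 RefSeq windows begins at 71062410 and the next at 71186515 on GRCh38.p14. This peak may therefore lie inside the longer RefSeq gene, near its first start. That was not tested, since no position was carried over between builds.

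GUCY2C, the receptor gene, had 10 replicate 1 peaks, 3 replicate 2 peaks and 3 shared sites. A shared site lay at the gene start to within the 1 kb precision of the interval, at chr12:14849552-14849674, and it was weak, with 7 in replicate 1 and 9 in replicate 2 (8 ± 1.41, SD, n = 2). It was the only shared site within 1 kb of the start given by the interval of any of the 7 genes. The site 18.9 kb before the start, at chr12:14868855-14868977, scored 12 in replicate 1 and 11 in replicate 2. The highest score of the interval was at chr12:14716051-14716173, 133.9 kb from the start and past the 3′ end, with 20 in replicate 1 and 13 in replicate 2 (16.5 ± 4.95, n = 2). It lay near the outer edge of the interval, where RefSeq lists PLBD1 as the neighbour. The gene body past its start held 4 peaks, all of replicate 1 alone and with scores of 5 to 8.

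Taking the strongest shared site of each gene by mean score, the order was SLC4A4, SLC9A2, SLC26A3, SLC12A2, GUCY2C and KCNQ1. In replicate 1 these sites scored 95, 57, 36, 24, 20 and 19 in that order. In replicate 2 they scored 64, 25, 30, 20, 13 and 8. SLC4A4 was first in both replicates, and its lower value exceeded the higher value of SLC9A2. The SLC9A2 and SLC26A3 sites chosen by mean score changed places between the replicates. With the strongest shared site picked in each replicate by itself, SLC9A2 was above SLC26A3 in both, at 57 against 39 in replicate 1 and 33 against 30 in replicate 2. SLC26A3, at 36 and 30, stayed above SLC12A2, at 24 and 20, in both replicates. SLC12A2, GUCY2C and KCNQ1 also kept their order within each replicate, though GUCY2C and KCNQ1 were close in replicate 1, at 20 and 19. Only across the replicates, whose scores differ in level, did ranges touch. Those of SLC12A2 and GUCY2C met at 20, and those of GUCY2C and KCNQ1 overlapped. With 2 replicates and a single condition no test between sites was made.

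**Figure D3:**
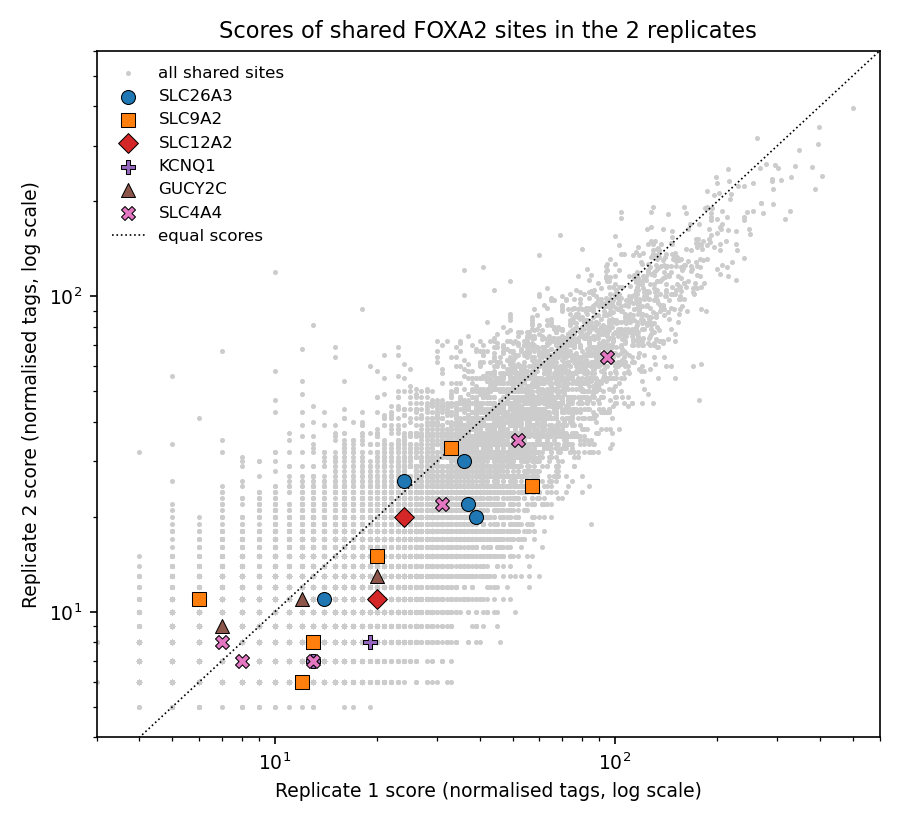
Replicate 2 score against replicate 1 score, in normalised tags on log axes, for all 24345 shared sites (grey) and the 24 in the gene intervals (symbols by gene; a KCNQ1 and an SLC4A4 site coincide at 13 and 7). Of the 24 sites 19 lie below the dotted line of equal scores, meaning higher in replicate 1, 1 lies on it and 4 above it. Of all 24345 shared sites, 15504 lie below it, 1616 on it and 7225 above it.

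The shared sites around these genes were of ordinary strength. Their mean scores had a median of 16 and ran from 7.5 to 79.5, against a median of 14.5 over all shared sites. Of the 24 sites 1, the first SLC4A4 site, lay above the 90th percentile of all shared sites, a mean score of 44, where 9.92% of the whole set lay. The sites just below it were the second SLC4A4 site at 43.5 and the first SLC9A2 site at 41. A mean score of at least 20 was reached by 10 of the 24, or 41.7%, against 33.9% of all shared sites. Scores were higher in replicate 1 at 19 of the 24 sites, and at 15504 of all 24345 shared sites. The median log2 ratio of replicate 1 to replicate 2 was 0.53 (SD 0.52 over sites). Over all shared sites it was 0.26 (SD 0.62). Since the called width differs, 123 bp in replicate 1 and 151 bp in replicate 2, this ratio is approximate.

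Shared sites lay outside the gene bodies as often as inside them. The bodies held 12, the 5′ flanks 6 and the 3′ flanks 6. Per length this was 1.03 shared sites per 100 kb in the bodies and 1.71 in either flank. The long genes set the value for the bodies: those of KCNQ1 and SLC4A4 had 0.759 per 100 kb, and those of the other 5 genes had 1.6. Within 5 kb of the start given by an interval there were 3 shared sites, those of SLC26A3, SLC12A2 and GUCY2C. The other starts of SLC4A4 were not counted. These windows cover 70 kb in all, so the 3 sites come to 4.29 per 100 kb, against 1.29 over the whole intervals, a difference that rests on 3 sites and was not tested.

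Peaks of replicate 1 alone were mostly weak, but their scores overlapped those of shared sites, which went down to 6 in replicate 1. In the intervals they had a median score of 7 (range 3 to 17), and 39 of 51, or 76.5%, scored under 10. In the whole list such peaks had a median of 6 (range 3 to 570), and 82.8% scored under 10. How often a peak was found again depended on its score over the whole list, from 4.21% at a score of 4 to 41.4% at 10 and 86.8% at 20. Applying these whole-list percentages to the scores of the 75 replicate 1 peaks gave 29.1 shared sites, against the 24 observed. By gene, 5 were observed for SLC26A3 against 6 from the percentages, 6 against 6.3 for SLC9A2, 2 against 3.8 for SLC12A2, 2 against 4.1 for KCNQ1, 6 against 6 for SLC4A4 and 3 against 2.8 for GUCY2C. The shortfall lay mainly in KCNQ1 and SLC12A2, and differences of this size on such counts were not tested.

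**Figure D4:**
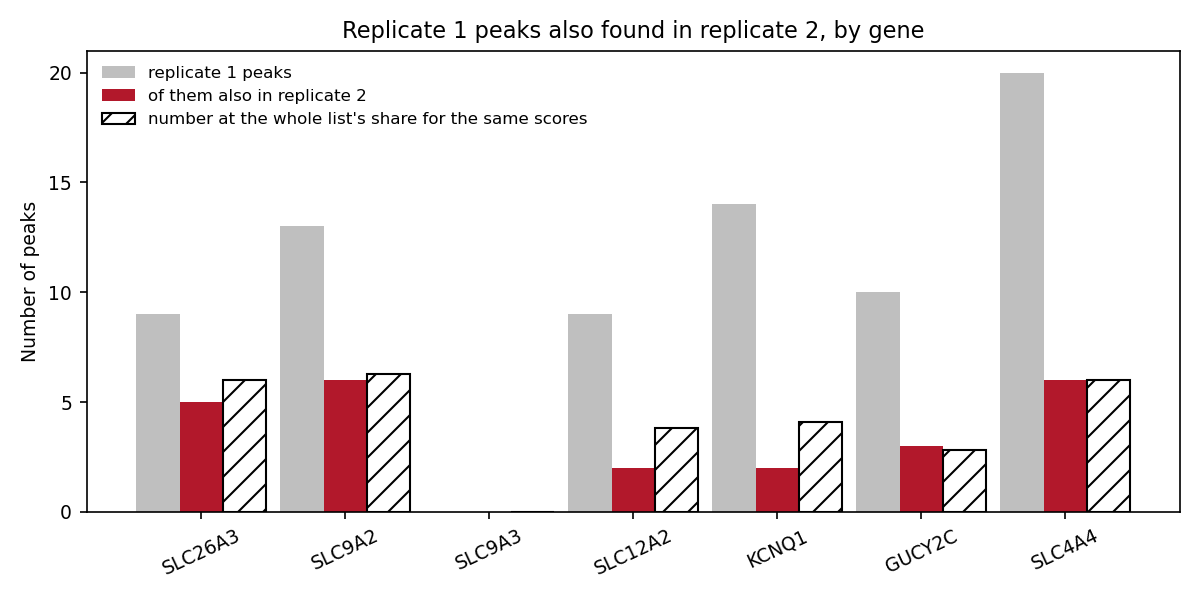
Number of peaks (vertical axis) per gene: all replicate 1 peaks, those also found in replicate 2, and the number that the whole list's percentages at the same scores would give. Observed and computed numbers are 6 and 6 for SLC4A4 and 2 and 4.1 for KCNQ1.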

How the data were processed

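Per the submitters' processing notes, the build was hg19, with Bowtie 1.0.0 and HOMER 1.2 among the tools. HOMER findPeaks (factor style) was run on each replicate with the input as control, per the file headers, at a false discovery rate of 0.001. A peak had to exceed both the input and its 10000 bp neighbourhood 4-fold, and nothing was pooled. The deposited score is a whole number. Multiplied by total tags over 10000000 and summed, it was 0.45% (replicate 1) and 0.196% (replicate 2) above the header's tags in peaks. It was therefore read as the authors' rounded normalised tag count. The headers also give a tag threshold of 11 in replicate 1 and 10 in replicate 2. By this reading the lowest scores stand for fewer tags, 7.85 and 7.88, a difference left unexplained.

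Peaks were placed by midpoint and overlaps checked with bedtools 2.31.1, using Python 3.11.15, numpy 2.4.6, pandas 2.3.3 and scipy 1.17.1. The overlap step was tested on simulated data. Windows were counted where their centre fell in a 1 Mb bin holding a peak, on chromosomes 1 to 22 and X. From a score of 30 upward, percentages found again were pooled. Gene direction came from RefSeq, and for KCNQ1 and GUCY2C from general knowledge. All 7 genes are described; sites are named if strongest in their interval, shared within 5 kb of a start, above the 90th percentile of shared sites or the highest of a single replicate. Other sites are given to complete the account and were chosen after their values were seen. The genes and lists were chosen with earlier results of these data known. Since the design has 1 condition, nothing was tested. Sequence motifs in peaks and a list of related transport genes, which need a genome and annotation of hg19, were not analysed here.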

Additional observations from a re-analysis of the deposited data

How the results depend on the processing

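The 24 shared sites stayed 24 with a reciprocal overlap of 50% and with midpoints within 100 bp, and became 25 with midpoints within 500 bp. They were 17 with 25 kb on each side and 27 with 100 kb, and SLC9A3 had none under either. They fell to 15 when both scores had to reach 10, with KCNQ1 then at 0, and to 12 in gene bodies only. Using a single replicate gave between 27 sites (without replicate 1) and 75 (without replicate 2), the second because that list is longer. The share of replicate 1 peaks found again, 32.0%, became 62.5% for peaks scoring at least 10, against 73.6% of such peaks in the whole list. Of the 75 replicate 1 peaks, 32 scored at least 10 and 46 lay in gene bodies. Of the 27 replicate 2 peaks, 17 and 14 did. Of 49 counts by gene under the alternatives that keep both replicates, 40 stayed within 1.5 times and 9 did not. The 40 include those of SLC9A3, most of which could not change because its interval held no peak. The SLC9A2 count is the one most tied to its flanks, with 6 shared sites at 50 kb, 3 at 25 kb and 1 in the gene body. By replicate 1 alone the strongest SLC26A3 site was the 3′ one at 39, and by replicate 2 alone the strongest SLC9A2 site was the second upstream one at 33. No paired analysis was possible because the design has a single group with replicates.

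The window tiling, the percentages by score and the search for TGTTTA alone were chosen after seeing the data. Depth limits the weak peaks: a score of 5 in replicate 2 stands for 7.88 tags. With 2 replicates, every SD rests on 2 values. The flanks overlap neighbouring genes, so a site in a flank has no assigned target.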
